A study of Mus musculus with 8 samples.

Results

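The genes described here are 10 members of the insulin-like growth factor (IGF) system, chosen by symbol from a table of 23420 genes. They are the ligands Igf1 and Igf2, the receptors Igf1r and Igf2r, the binding proteins Igfbp2, Igfbp4, Igfbp5 and Igfbp7, and the adaptors Irs1 and Irs2. All 10 had a row in the table and all 10 passed the filter on low counts. They were measured in the C2C12 line of mouse myoblasts, which withdraw from the cell cycle and fuse into myotubes in low serum. WT cells and cells overexpressing AUF1, the RNA-binding product of Hnrnpd, were grown with 10% fetal bovine serum and then kept for 48 h with 2% horse serum. Total RNA and RNA from heavy polysomes, the fraction that carries many ribosomes per mRNA, gave 4 groups of 2 libraries each. The sources used here do not give a vector for the WT cells, the way AUF1 was introduced, or whether 1 clone or a pool was used, so AUF1 itself and other differences between the lines cannot be told apart. Nor do they say that both libraries of a group are separate cultures, and the p-values may then reflect technical spread only.

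IGF1 and IGF2 are secreted growth factors that act mainly through the tyrosine kinase receptor encoded by Igf1r. The active receptor phosphorylates the docking proteins IRS1 and IRS2, which recruit PI3-kinase and so switch on AKT and mTOR, while AKT keeps FOXO transcription factors out of the nucleus. In muscle this pathway is known for driving myoblast differentiation, fibre growth and protein synthesis. IGF2R, the cation-independent mannose 6-phosphate receptor, takes up IGF2 for breakdown and sorts lysosomal enzymes, and the binding proteins hold the ligands in the extracellular space and set how much of them reaches the receptor.

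AUF1 recognises AU-rich stretches of 3' untranslated regions (UTRs), whose core is the pentamer ATTTA in DNA letters. In the longest 3' UTR annotated for each gene (GENCODE M21, mm10), Igf1 had 18 ATTTA in 6308 bases and Igf1r had 13 in 7267 bases. Of 11965 tested genes with an annotated 3' UTR, 98.8% had fewer ATTTA than Igf1 and 96.4% had fewer than Igf1r. Their UTRs are also long, longer than those of 98% and 98.9% of these genes. The median over these genes was 2 ATTTA in a UTR of 1190 bases, or 1.3 per kilobase, against 2.85 per kilobase in Igf1 and 1.79 in Igf1r. Irs2 and Igfbp5 had 7 each, Irs1 had 6, Igfbp4 had 4, Igf2r had 3, Igfbp7 had 2, and Igfbp2 and Igf2 had 1 each. The longer motif TATTTAT, which contains ATTTA, was found in 6 of the 10 members and in 30.5% of the 11965 genes. It was not in the annotated UTRs of Igf1, Igf2, Igf1r or Igfbp7. Motifs were searched on the mRNA strand only and overlapping matches were counted. Gene counts do not show which UTR length the cells used, and a match is a description of the sequence, not a binding site.

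One window of 29 bases is shown for 8 members, namely Igf1 and Igf1r with the most ATTTA, Igf2 with the fewest per kilobase, Igf2r and Irs1, which separated the genotypes, and Igfbp2, Igfbp5 and Igfbp7, which were split by replicate number. Each is the window of its UTR that holds the most ATTTA, or the one nearest the stop codon where several tied. In Igf1, Igf1r and Igf2r it is such a tied window with 1 ATTTA. Windows are written 5' to 3' along the mRNA strand, with ATTTA in capitals. The windows lie at chr10:87931112-87931140 on the plus strand (Igf1), chr7:68227009-68227037 on the plus strand (Igf1r), chr17:12683323-12683351 on the minus strand (Igf2r), chr1:82237151-82237179 on the minus strand (Irs1), chr1:72852252-72852280 on the plus strand (Igfbp2), chr1:72857997-72858025 on the minus strand (Igfbp5), chr5:77349290-77349318 on the minus strand (Igfbp7) and chr7:142650766-142650794 on the minus strand (Igf2), all in mm10.
Igf1: ctgaagccattcATTTAgcaactgtgtag
Igf1r: ggtcaccccaaaATTTAaaagggccattg
Igf2r: tacggggtgaccATTTAtatttttagcat
Irs1: aatATTTAacataggttttgATTTAtata
Igfbp2: tttgacacatgtATTTAtatttggaaaga
Igfbp5: ttctATTTAttcaacttataATTTAtgtt
Igfbp7: ctacaaaaATTTAttATTTAcagaaaaaa
Igf2: aaacctaataaagcATTTAaaatactatt
The windows of Irs1, Igfbp5 and Igfbp7 held 2 copies each, spaced apart, whereas no window of this length in Igf1, Igf1r or Igf2r held more than 1.

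Levels are given as CPM, counts normalised to library size with TMM (trimmed mean of M-values) factors, and libraries held 25281224 to 34917660 counts in genes. Hnrnpd stood at 64.2 to 131 CPM in the 4 WT libraries and at 397 to 549 CPM in the 4 AUF1 libraries, so the target gene was higher wherever the label says so. The first principal component of log2 CPM (44.6% of the variance) set replicate 1 apart from replicate 2 in all 4 groups, and the second (37.1%) set the genotypes apart. Differences between AUF1 and WT are therefore given within each replicate number and from a fit that includes it as a block, beside the planned fit without one. The 8 skeletal muscle markers, none of them at 0, summed to 3738 to 5160 CPM in the WT libraries and to 18233 to 25850 CPM in the AUF1 libraries. The largest was Acta1, at 1218 to 2285 CPM in WT and 9018 to 12324 CPM with AUF1. Myod1 overlapped between the genotypes (191 to 359 and 261 to 338 CPM), and Chrna1 was split by replicate number in every group. The 8 fibroblast markers summed to 3759 and 2145 CPM in WT replicate 1 (total and polysome) and to 494 and 519 CPM in WT replicate 2. With AUF1 they summed to 1070 and 526 CPM in replicate 1 and to 312 and 320 CPM in replicate 2. Lum and Thy1 were each at 0 in 6 libraries. Adipocyte, osteoblast, endothelial, immune and neuronal markers summed to at most 2.64 CPM. The 5 smooth muscle markers summed to 692 to 789 CPM in the WT libraries and to 1245 to 1865 CPM in the AUF1 libraries. Most of that sum was Tagln, at 467 to 581 CPM in WT and 925 to 1470 CPM with AUF1, whereas Myh11 was at 1.85 CPM or less in all libraries.

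Of the 10 members, 3 separated WT from AUF1 in both kinds of RNA. Igf1 and Irs1 were lower in every AUF1 library than in any WT library, and Igf2r was higher. In edgeR with the replicate block, Igf1 and Irs1 fell and Igf2r rose in total RNA, and Igf1 fell and Igf2r rose on heavy polysomes. The planned edgeR fit called 0 of the 10 in either comparison. Igf1, Igf2r and Irs1 had an unadjusted p under 0.05 in each. The share of all tested genes under that limit is not given for these comparisons, so this is not read as support. DESeq2 without the block called Igf1 and Igf2r in total RNA and Igf1 on polysomes, and with the block it called all 3 in both. How many of all tested genes DESeq2 called is given in the last section. The 3 members whose groups did not overlap are 30% of the list. In total RNA 40.3% of all 13167 tested genes did not overlap (22.5% higher and 17.8% lower with AUF1), and on polysomes 44.8% (23.6% higher and 21.3% lower), so this share of the members lies below the background. The planned fit called 1.02% of all tested genes in total RNA and 0.349% on polysomes. With the block 13.1% were called in total RNA (6.99% higher and 6.15% lower) and 13% on polysomes (6.7% higher and 6.33% lower). The median log2 fold change of the members was -0.10 in total RNA and -0.28 on polysomes, and 4 and 3 of the 10 were above 0. The median of all tested genes was 0.0024 and 0.0023.

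**Figure D1:**
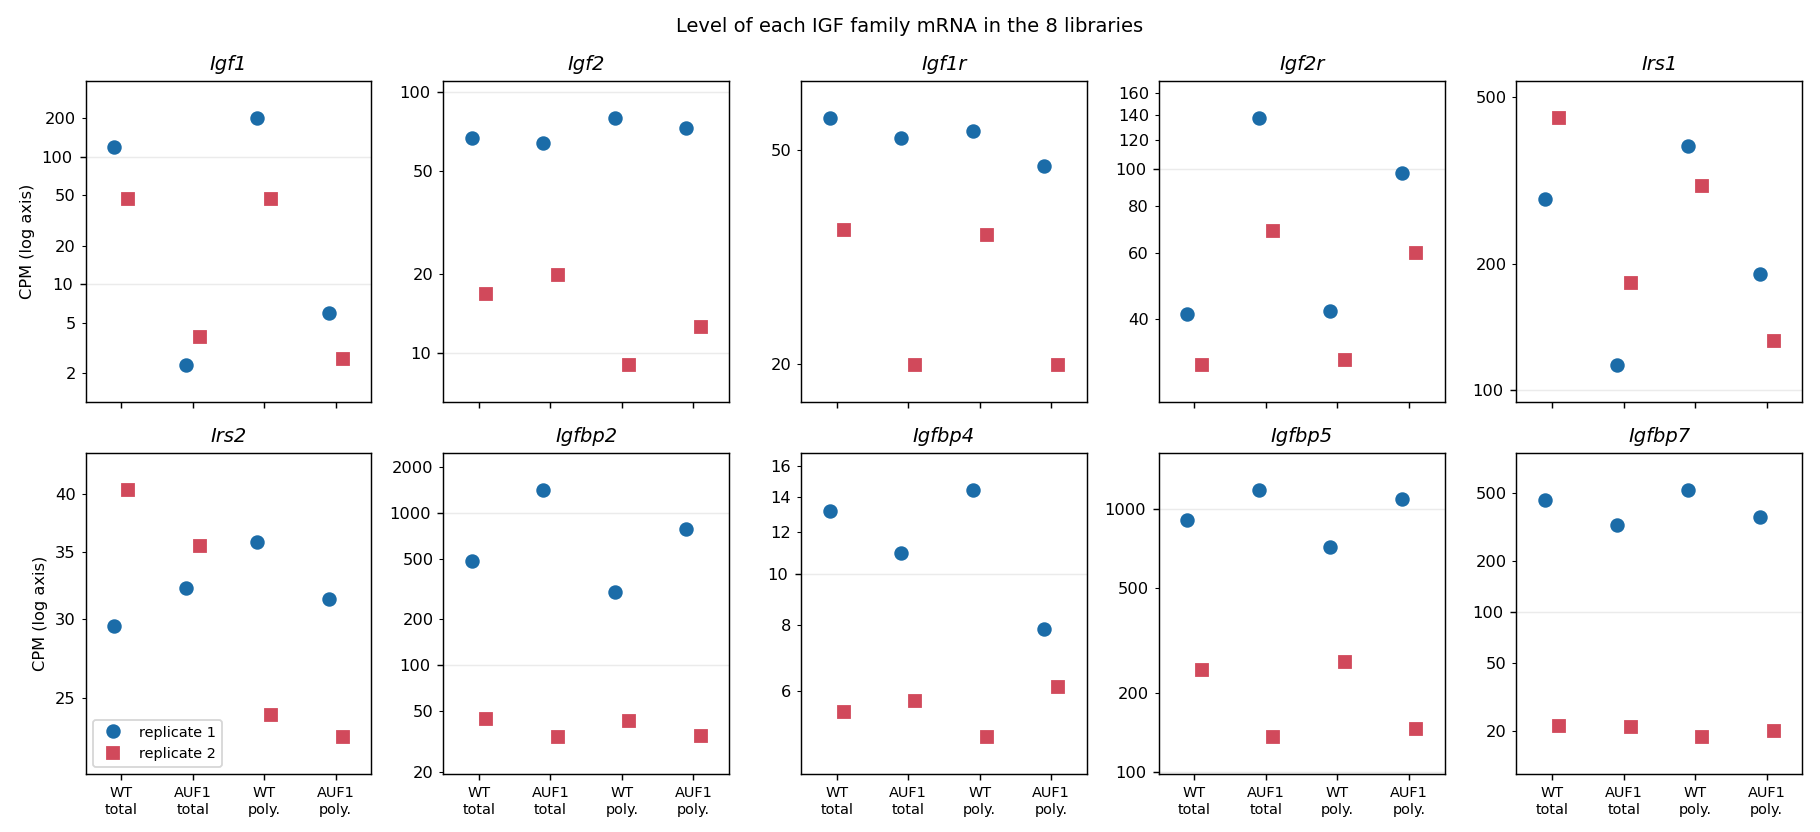
CPM (log axis) of the 10 IGF family members in each library, by group on the horizontal axis; circles are replicate 1 and squares replicate 2. Igf1 lies at 46.4 to 201 CPM in WT and at 2.31 to 5.90 CPM with AUF1, while Igfbp2, Igfbp5 and Igfbp7 are split by replicate number.

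Igf1 (chr10:87858265-87937042, plus strand) had the largest difference between genotypes of the family. In total RNA the WT libraries (replicates 1 and 2) gave 120 and 47.0 CPM and the AUF1 libraries 2.31 and 3.85 CPM, from 2974 and 1337 counts against 66 and 104. On heavy polysomes the WT libraries gave 201 and 46.4 CPM and the AUF1 libraries 5.90 and 2.58 CPM. The lowest WT library was thus well above the highest AUF1 library, although the WT libraries also differed from each other, with replicate 1 the higher. Group means were 83.7 ± 52.0 and 3.08 ± 1.09 CPM in total RNA and 124 ± 110 and 4.24 ± 2.35 CPM on polysomes (SD, n = 2 each).

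For Igf1 the log2 fold change in total RNA was -4.76 ± 0.95 (SE), a 27.1-fold lower level, and edgeR gave adjusted p = 0.0917 without the block and 0.00151 with it (log2 fold change -4.45 ± 0.59). On polysomes it was -4.86 ± 0.95, with an adjusted p of 0.0922 without the block and 0.00126 with it (-4.72 ± 0.59). Within replicates 1 and 2 the difference was -5.66 and -3.59 in total RNA and -5.08 and -4.13 on polysomes. These differences had the same direction in both numbers and both kinds of RNA, and were larger within replicate 1. Ordered from the lowest log2 fold change of 13167 tested genes, Igf1 had rank 35 in total RNA and 28 on polysomes. With the block it was called with any 1 of the 8 libraries left out, at an adjusted p of at most 0.0227 in total RNA and 0.00555 on polysomes. Its size depended on single libraries: with the block it was -3.56 in total RNA without AUF1 total replicate 1 and -5.82 without AUF1 total replicate 2, and on polysomes -3.88 without WT polysome replicate 1 and -5.31 without WT polysome replicate 2. Without the block the values with 1 library left out ran from -5.29 to -4.03 in total RNA and from -5.58 to -3.45 on polysomes. In bulk RNA, fewer cells that express a gene and less of its mRNA per cell cannot be told apart. The fibroblast marker sum was also lower with AUF1 within both replicate numbers. Most of that sum was the collagen gene Col3a1, at 3357 and 426 CPM in WT total RNA and 1045 and 299 CPM with AUF1. In total RNA Mfap5 went from 323 and 49.4 CPM to 16.0 and 8.33 CPM and Dcn from 52.7 and 9.27 CPM to 3.05 and 1.30 CPM. Pdgfra went from 20.5 and 8.96 CPM to 3.71 and 3.70 CPM, and Pi16 from 2.43 and 0.281 CPM to 0.876 and 0.148 CPM. Dpt went from 2.31 and 0.105 CPM to 1.401 and 0.407 CPM, so it was higher with AUF1 within replicate 2 only, from 3 and 11 counts. The skeletal muscle marker sum was higher with AUF1, as given above. Any part of the cell make-up behind these sums in the Igf1 difference was not tested.

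Igf2 (chr7:142650766-142666816, minus strand), the ligand that differentiating myoblasts are known to secrete, did not separate the genotypes. It measured 66.5 and 16.9 CPM in WT total RNA and 63.7 and 19.9 CPM in AUF1 total RNA. On polysomes the WT libraries gave 79.6 and 8.98 CPM and the AUF1 libraries 72.7 and 12.6 CPM. The groups overlapped fully, and in every group replicate 1 was far above replicate 2. AUF1 and WT differed by a log2 fold change of 0.0039 ± 1.28 in total RNA (edgeR adjusted p = 0.999, 0.865 with the block) and -0.05 ± 1.28 on polysomes (0.996, 0.868 with the block). With the block the log2 fold changes were 0.11 and 0.12, each with an SE of 0.34. These counts carry a limit, since 62.8% of the exon bases of Igf2 lie in the overlapping gene model Gm49394 on the same strand. Reads of several genes were kept apart from the gene counts, so Igf2 would lose such reads if the authors' counting used that model.

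Igf1r (chr7:67952827-68233668, plus strand), the receptor that signals for both ligands, was lower with AUF1 within each replicate number but passed in neither fit. It measured 57.3 and 35.5 CPM in WT total RNA and 52.5 and 19.9 CPM in AUF1 total RNA, and 54.1 and 34.8 CPM against 46.7 and 19.9 CPM on polysomes. The groups overlapped, because AUF1 replicate 1 lay above WT replicate 2 in both kinds of RNA. In the planned fit the log2 fold change was -0.36 ± 0.62 in total RNA (edgeR adjusted p = 0.895, 0.292 with the block) and -0.41 ± 0.62 on polysomes (0.903, 0.254 with the block). Within replicates 1 and 2 the difference was -0.13 and -0.83 in total RNA and -0.21 and -0.80 on polysomes.

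Igf2r (chr17:12682406-12769664, minus strand), the receptor that removes IGF2, was higher with AUF1. It measured 41.2 and 30.1 CPM in WT total RNA and 137 and 68.4 CPM in AUF1 total RNA (group averages 35.7 ± 7.82 and 103 ± 48.5, SD, n = 2 each). On polysomes the WT libraries gave 42.0 and 31.0 CPM and the AUF1 libraries 97.7 and 59.8 CPM (group averages 36.5 ± 7.78 and 78.8 ± 26.9). Both AUF1 libraries exceeded both WT libraries in each kind of RNA, and replicate 1 was the higher of each pair.

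For Igf2r the log2 fold change in total RNA was 1.53 ± 0.45 without the block (edgeR adjusted p = 0.201) and 1.47 ± 0.24 with it (0.0046). On polysomes it was 1.11 ± 0.44 without the block (0.334) and 1.08 ± 0.24 with it (0.0182). Within replicates 1 and 2 the difference was 1.73 and 1.18 in total RNA and 1.22 and 0.94 on polysomes. The rise seen with the block in total RNA was lost without WT total replicate 1 (log2 fold change 1.24, adjusted p = 0.158). That on polysomes was lost without WT total replicate 1 (adjusted p = 0.0657), WT polysome replicate 1 (0.146), AUF1 polysome replicate 1 (0.14) or AUF1 polysome replicate 2 (0.0894), at log2 fold changes of 0.94 to 1.11.

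Irs1 (chr1:82233101-82291416, minus strand), a docking protein that couples the receptor to PI3-kinase, was lower with AUF1. In total RNA the WT libraries gave 286 and 445 CPM and the AUF1 libraries 115 and 180 CPM (group averages 366 ± 113 and 147 ± 46.4, SD, n = 2 each). On polysomes the WT libraries gave 381 and 307 CPM and the AUF1 libraries 189 and 131 CPM (group averages 344 ± 52.8 and 160 ± 40.8). The genotypes did not overlap, and replicate 2 was the higher of each total pair but the lower of each polysome pair.

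For Irs1 the log2 fold change in total RNA was -1.31 ± 0.37 without the block (edgeR adjusted p = 0.187) and -1.31 ± 0.32 with it (0.0285). On polysomes it was -1.11 ± 0.37 without the block (0.256) and -1.10 ± 0.32 with it (0.0526), and it passed in neither edgeR fit, though DESeq2 with the block called it (0.0151). Within replicates 1 and 2 the difference was -1.32 and -1.31 in total RNA and -1.02 and -1.23 on polysomes, the most even of the 3 separated members. With the block the call in total RNA was lost without WT total replicate 1 (adjusted p = 0.0799), WT total replicate 2 (0.309) or AUF1 total replicate 1 (0.0686). On polysomes edgeR with the block called Irs1 without AUF1 total replicate 1 (0.00447), AUF1 total replicate 2 (0.0168) or WT polysome replicate 2 (0.00552). The opposite-strand gene model Gm9747 overlaps 30.9% of the exon bases of Irs1, and without a stated strand setting reads of the pair cannot be told apart.

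Irs2 (chr8:10984681-11008458, minus strand), the second docking protein, gave no such difference. It measured 29.5 and 40.4 CPM in WT total RNA and 32.2 and 35.5 CPM in AUF1 total RNA, and 35.8 and 24.03 CPM against 31.4 and 22.9 CPM on polysomes. The groups overlapped in both kinds of RNA. Its log2 fold change was -0.05 ± 0.34 in total RNA (edgeR adjusted p = 0.982, 0.926 with the block) and -0.14 ± 0.34 on polysomes (0.965, 0.817 with the block). Without the block Irs2 was the family member with the smallest SE of this fold change. With the block its SE in total RNA was 0.295, above those of Igf2r (0.242), Igfbp7 (0.251) and Igf1r (0.269). Whether Irs1 and Irs2 differ in their response was not tested.

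**Figure D2:**
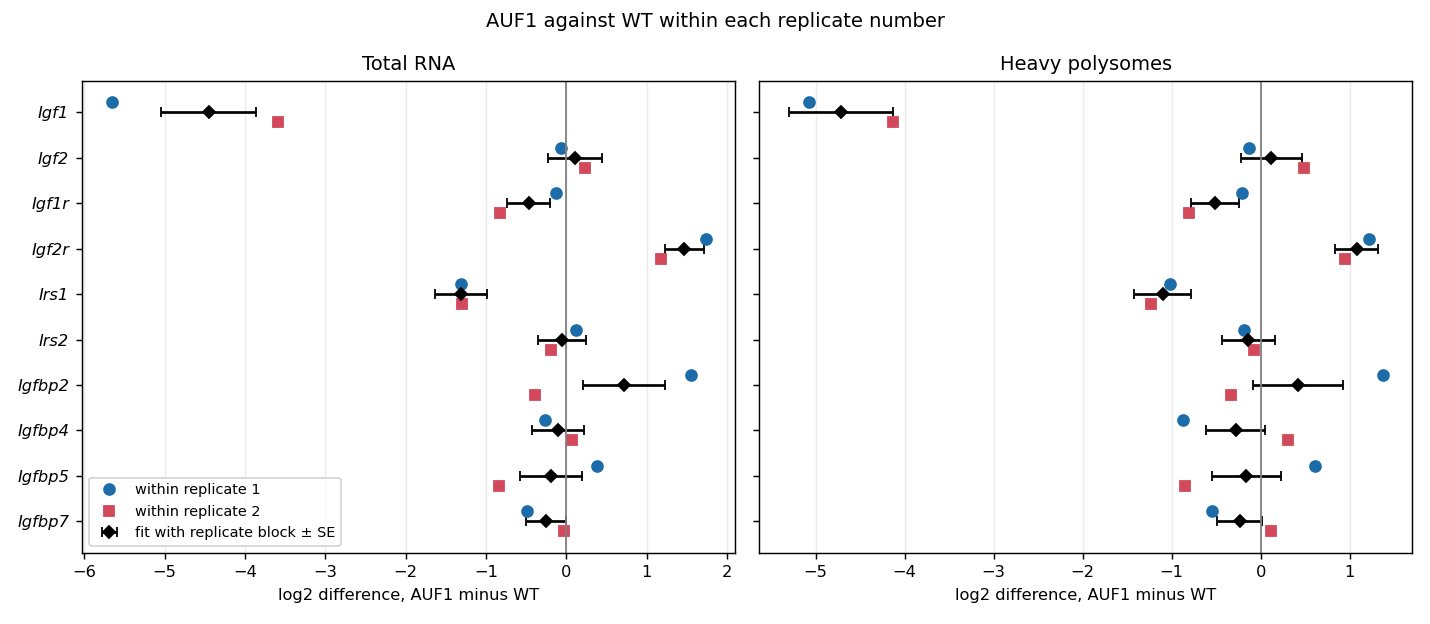
Log2 difference between AUF1 and WT for each IGF family member in total RNA and on heavy polysomes; circles and squares are the difference within replicates 1 and 2, and diamonds are the fit with the replicate block ± SE. Igf1, Igf2r and Irs1 lie on 1 side of 0 in both numbers, whereas Igfbp2 is above 0 within replicate 1 and below 0 within replicate 2.

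Igfbp2, Igfbp5 and Igfbp7 differed more between replicate numbers than between genotypes. Igfbp2 (chr1:72824503-72852474, plus strand), which binds both ligands, measured 482 and 44.7 CPM in WT total RNA and 1417 and 34.0 CPM in AUF1 total RNA. On polysomes the WT libraries gave 302 and 43.4 CPM and the AUF1 libraries 780 and 34.4 CPM. Replicate 1 was thus higher with AUF1 and replicate 2 slightly lower, and the groups overlapped. Within replicates 1 and 2 the log2 difference was 1.56 and -0.39 in total RNA and 1.37 and -0.33 on polysomes. Neither the log2 fold change of 1.46 ± 2.06 in total RNA (edgeR adjusted p = 0.861, 0.398 with the block) nor that of 1.24 ± 2.04 on polysomes (0.922, 0.652 with the block) passed. With the block the log2 fold change in total RNA was 1.49 without AUF1 total replicate 2 and 1.10 without WT total replicate 2. On polysomes it was 1.34 without WT polysome replicate 2 and 0.75 without AUF1 polysome replicate 2. In these fits replicate 1 alone compares the genotypes in that RNA, and the size depended on which library was left out.

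Igfbp5 (chr1:72857932-72874884, minus strand) lies next to Igfbp2 and is the binding protein most often linked to muscle differentiation. It measured 905 and 243 CPM in WT total RNA and 1184 and 136 CPM in AUF1 total RNA, and 715 and 262 CPM against 1093 and 145 CPM on polysomes. As in Igfbp2, replicate 1 was higher with AUF1 and replicate 2 lower, with a log2 difference of 0.39 and -0.84 in total RNA and 0.61 and -0.85 on polysomes. The log2 fold change was 0.20 ± 1.29 in total RNA and 0.34 ± 1.30 on polysomes without the block, and -0.19 and -0.16 with it, and passed in neither (lowest edgeR adjusted p = 0.784).

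Igfbp7 (chr5:77349240-77408041, minus strand), a secreted protein with low affinity for IGFs, had the widest split by replicate number of the WT groups. It measured 457 and 21.4 CPM in WT total RNA, 326 and 21.0 CPM in AUF1 total RNA, 524 and 18.5 CPM on WT polysomes and 359 and 20.1 CPM on AUF1 polysomes. Within replicate 2 the genotypes were nearly equal, with a log2 difference of -0.03 in total RNA and 0.12 on polysomes, against -0.49 and -0.54 within replicate 1. The log2 fold change was -0.46 ± 2.12 and -0.51 ± 2.12 in the planned fit (edgeR adjusted p = 0.969 and 0.987; 0.554 and 0.6 with the block).

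Igfbp4 (chr11:99041244-99054392, plus strand), a binding protein that mainly restrains IGF action, was the least abundant of the 4. It measured 13.1 and 5.48 CPM in WT total RNA, 10.9 and 5.74 CPM in AUF1 total RNA, 14.4 and 4.92 CPM on WT polysomes and 7.86 and 6.12 CPM on AUF1 polysomes. These values rest on 155 to 508 counts per library. The groups overlapped, and the log2 fold change of -0.16 ± 0.67 in total RNA and -0.47 ± 0.67 on polysomes passed in neither fit (edgeR adjusted p = 0.967 and 0.893; 0.866 and 0.642 with the block).

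The split by replicate number was larger in this family than in the median gene. The median absolute log2 difference between the libraries of a group was 1.20 to 1.49 over the members and 0.435 to 0.654 over all tested genes. Igfbp7 differed by 3.95 to 4.82, Igfbp2 by 2.80 to 5.38, Igfbp5 by 1.45 to 3.12 and Igf2 by 1.67 to 3.14, each higher in replicate 1 in all 4 groups. Igf1r, Igf2r and Igfbp4 were also higher in replicate 1 in all 4 groups, whereas Igf1, Irs1 and Irs2 were not. The share of all tested genes with this pattern is not given here, so it is not read as a trait of the family. Igf1 was higher in replicate 1 in all groups but AUF1 total, where the difference was -0.72. Irs1 and Irs2 were lower in replicate 1 in total RNA, by -0.64 and -0.65 and by -0.45 and -0.14, and higher on polysomes, by 0.31 and 0.53 and by 0.57 and 0.46. The fibroblast marker sum given above was also higher in replicate 1 of every group, and its part in these differences was not tested.

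**Figure D3:**
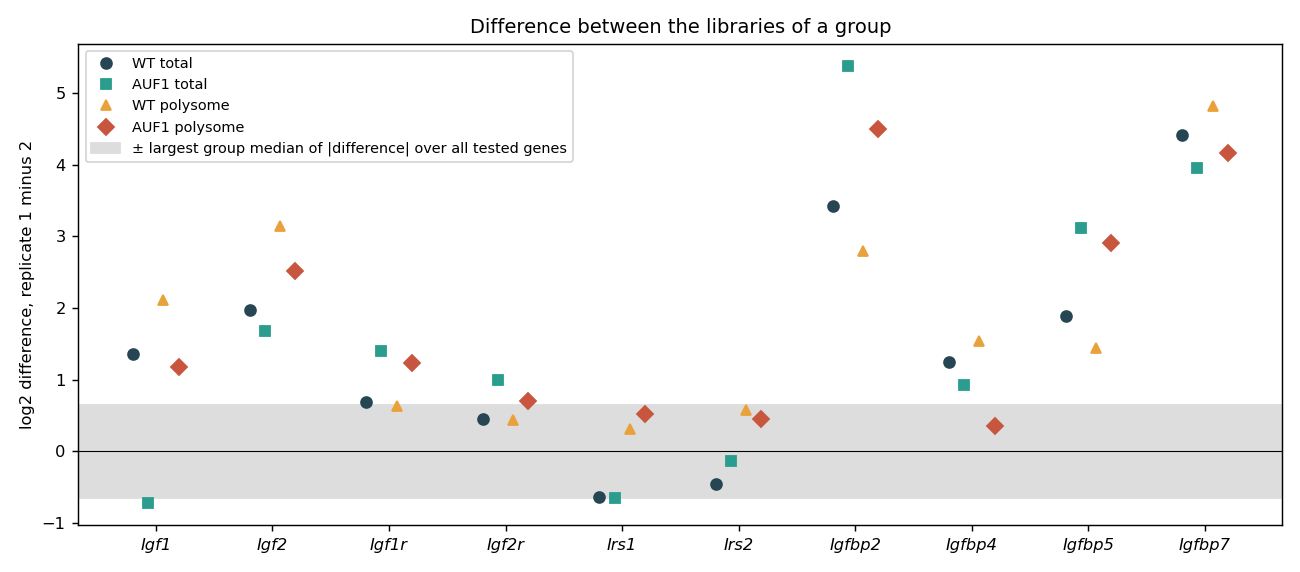
Log2 difference in CPM between replicates 1 and 2 of each group for the 10 members; the grey band spans ± 0.654, the largest group median of the absolute difference over all tested genes. Igfbp7 lies between 3.95 and 4.82 and Irs1 and Irs2 lie within the band in all groups.

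Levels between genes were compared as CPM per kilobase of exon. In WT total RNA the order of the means was Igfbp7 (197.7), Igfbp2 (142.5), Igfbp5 (95.6), Irs1 (39.97), Igf1 (8.45), Igf2 (7.29), Irs2 (5.53), Igf2r (3.83), Igf1r (2.76) and Igfbp4 (2.11). Among neighbours in this order, only Irs1 and Igf1, and Irs2 and Igf2r, did not overlap between their libraries. Igfbp7 spanned 17.7 to 377.7 and Igfbp2 24.2 to 260.9, and Igf1, with 4.74 and 12.2, overlapped Igf2, with 2.95 and 11.6. In AUF1 total RNA the level per kilobase of Igf1 was 0.233 and 0.389, the lowest of the 10, against place 5 in WT. Igf2r, with 14.7 and 7.35, stood at place 5, against 8 in WT. Igf1 and Igf2r had these places on polysomes too. In replicate 2 alone, Irs1 had the highest level per kilobase in WT total RNA, at 48.7, above Igfbp5 at 40.5.

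The interaction asks whether the AUF1 difference on heavy polysomes differs from that in total RNA. It passed for 0 of the 10 members in edgeR and in DESeq2, each with or without the block, 0 had an unadjusted p under 0.05, and 0% of all tested genes were called. The values ran from -0.42 ± 0.62 for Igf2r to 0.20 ± 0.52 for Irs1 on the log2 scale, and Igf1 had -0.10 ± 1.16. For Igf1 the interaction was 0.59 within replicate 1 and -0.55 within replicate 2, so the numbers differed in sign. Interactions of several such SEs could still be missed here. In the same fit the Igf1 genotype difference in total RNA, at -4.76 ± 0.95, was not called (edgeR adjusted p = 0.0917).

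**Figure D4:**
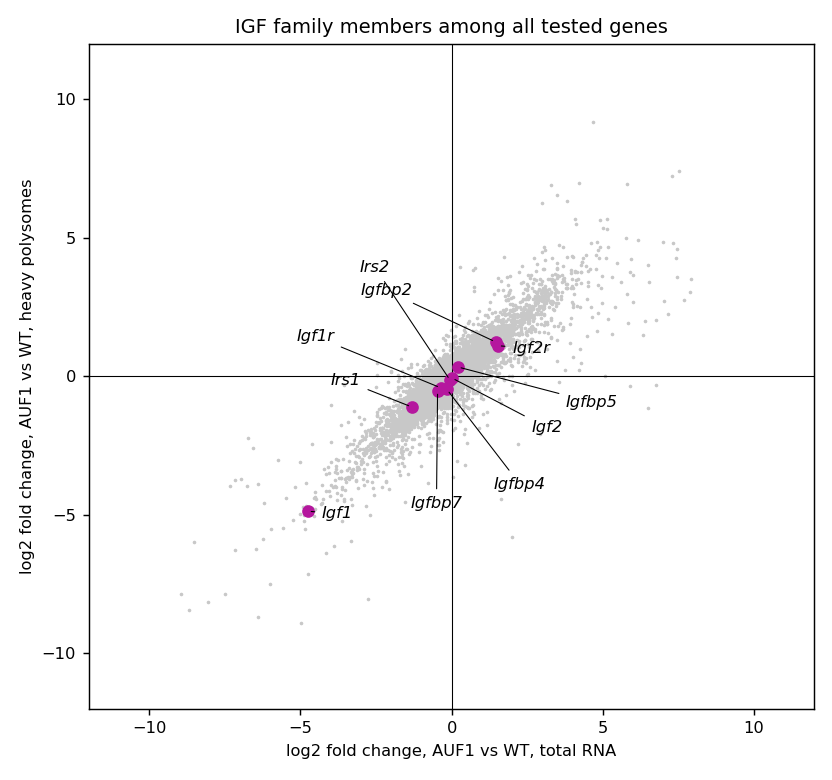
Log2 fold change of AUF1 against WT in total RNA (horizontal) and on heavy polysomes (vertical) for 13167 tested genes (grey) and the 10 members (coloured), from the fit without the block. Igf1 lies at -4.76 and -4.86, Igf2r at 1.53 and 1.11 and Irs1 at -1.31 and -1.11.

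Heavy polysomes were also compared with total RNA within each genotype, which asks how a message is spread between the fractions. With all libraries in the fit, 0 of the 10 members passed in either genotype, in edgeR or in DESeq2, each with or without the block, and 0 had an unadjusted p under 0.05. Of all tested genes, 0% were called by the planned fit and 0.0152% with the block in each genotype. In WT the log2 difference ran from -0.61 ± 2.02 (Igfbp2) to 0.57 ± 0.81 (Igf1), and with AUF1 from -0.83 ± 2.03 (Igfbp2) to 0.46 ± 0.83 (Igf1). With AUF1 the difference for Igf1 was 1.33 within replicate 1 and -0.56 within replicate 2. With the block it was called without AUF1 total replicate 2 (1.53, adjusted p = 0.0401). In WT the 2 groups overlapped for all 10 members (27.9% of all tested genes did not overlap). With AUF1 only Irs2 did not overlap, being lower on polysomes (22.3% of all tested genes did not overlap, 13.4% being lower), at a log2 difference of -0.32 ± 0.34. The Igf2-linked noncoding RNA H19 was lower on polysomes with the block, by -2.35 ± 0.24 in WT and -2.65 ± 0.25 with AUF1 (edgeR adjusted p = 0.0231 and 0.0181; 0.331 and 0.172 without the block).

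The genes whose log2 CPM followed a member most closely over the 8 libraries were taken by Pearson's r among 9661 candidates whose log2 CPM averaged 3 or more. The 8 points share genotype and replicate number, so r mostly records those 2 splits and is given without a p. For Igf1 these were 2610307P16Rik (r = 0.9886), Hoxa3 (0.9882), a homeobox factor, and Ptch1 (0.9861), the Hedgehog receptor. Hoxa3 measured 22.1 and 19.4 CPM in WT total RNA and 6.41 and 8.63 CPM in AUF1 total RNA, a smaller difference than that of Igf1. For Igf2 they were Cadm1 (0.9928), a cell adhesion molecule, Vimp (0.9904), a selenoprotein of the endoplasmic reticulum, and Gnptg (0.9897), a subunit of the enzyme that makes the mannose 6-phosphate tag. For Igfbp5 they were Abhd6 (0.9973), a lipid hydrolase, Serinc5 (0.9956) and Slc16a3 (0.9927), a lactate transporter. Vimp stood at 97.8 and 13.2 CPM in WT total RNA and Slc16a3 at 103.7 and 14.5 CPM, and both were split by replicate number in every group.

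Among 13 other genes of the IGF and insulin family, 12 were in the table and 6 could be tested. Over all tested genes the fit with the block called 13.1% in total RNA and 13% on polysomes, the background for this list and those below. For counts at an unadjusted p under 0.05 no such share is given. With the block 1 fell in each genotype comparison, Igfbp3, the main carrier of IGFs in blood. It measured 27.8 and 4.64 CPM in WT total RNA and 2.94 and 0.444 CPM in AUF1 total RNA, and 34.7 and 7.43 against 2.77 and 0.959 CPM on polysomes. Replicate 1 was the higher in every group, and no AUF1 library reached the WT libraries of the same kind of RNA. The log2 fold change with the block was -3.24 ± 0.35 in total RNA and -3.34 ± 0.35 on polysomes (edgeR adjusted p = 0.000688 and 0.000634; 0.362 and 0.319 without), and -3.21 and -3.20 within replicates 1 and 2 of total RNA. The planned fit called 0 of the 6, with 3 in total RNA (H19, Igfbp3 and Irs3) and 1 on polysomes (Igfbp3) at an unadjusted p under 0.05. Insr, the insulin receptor, stood at 32.2 and 25.04 CPM in WT and 34.2 and 19.3 CPM with AUF1 in total RNA, with overlapping groups. Igf2as, the name in the table for a transcript antisense to Igf2, had 0.365 and 0.913 CPM in WT total RNA and 1.12 and 3.41 CPM with AUF1, and rose with the block (log2 fold change 1.78 ± 0.42 in total RNA, edgeR adjusted p = 0.0248 with the block, 0.457 without). It was added by its older name after its values were seen. The annotated overlap with Igf2 is 98 bases on the opposite strand, or 1.71% of the exon bases of Igf2. Without a stated strand setting, reads of the pair cannot be told apart there.

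Of 10 tested proteases and inhibitors that act on binding proteins, 1 rose with the block in total RNA and 2 on polysomes, and 0 fell. The share called over all tested genes was 13.1% and 13%. Adamts1, a secreted metalloproteinase, had a log2 fold change with the block of 0.86 ± 0.23 in total RNA and 0.89 ± 0.23 on polysomes (edgeR adjusted p = 0.0383 and 0.0313 with the block, 0.245 and 0.237 without). Pappa, the protease that cleaves IGFBP4 and frees IGFs, measured 4.37 and 4.04 CPM in WT total RNA and 16.7 and 8.48 CPM in AUF1 total RNA. With the block it passed on polysomes (1.43 ± 0.40, adjusted p = 0.0463) and missed in total RNA (1.43 ± 0.41, 0.0501). Of 4 tested proteins of the list of IGF mRNA-binding proteins and their regulators, Hmga2, a chromatin protein that raises Igf2bp2 transcription, fell with the block (-0.88 ± 0.23 in total RNA and -0.86 ± 0.22 on polysomes, edgeR adjusted p = 0.0334 and 0.0345). Igf2bp2 itself had a log2 fold change of 0.08 ± 0.24 in total RNA with the block (0.862). The planned fit called 0 of these 10 and 0 of these 4 in either comparison, with Adamts1 alone at an unadjusted p under 0.05.

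Downstream, 29 of 29 genes of PI3-kinase, AKT and mTOR signalling were tested, and with the block 4 rose and 1 fell in each genotype comparison. This stands beside 13.1% of all tested genes called with the block in total RNA and 13% on polysomes. Pik3cd, a catalytic subunit of PI3-kinase, measured 1.34 and 1.69 CPM in WT total RNA and 12.4 and 5.85 CPM in AUF1 total RNA, a log2 fold change of 2.52 ± 0.39 with the block (edgeR adjusted p = 0.00348 with the block, 0.0684 without). Inppl1, the lipid phosphatase SHIP2, changed with the block by 1.48 ± 0.24 (0.00393), Rptor, the mTORC1 subunit, by 1.41 ± 0.22 (0.00319) and Akt2, the AKT form best known for insulin action, by 1.17 ± 0.27 (0.0231). Pik3r1, the regulatory subunit that binds IRS proteins, measured 105 and 215 CPM in WT and 21.9 and 79.4 CPM in AUF1 total RNA. It fell with the block (-1.77 ± 0.36, edgeR adjusted p = 0.0121 with the block, 0.332 without). On polysomes Deptor, an mTOR inhibitor, rose with the block (1.09 ± 0.31, 0.0495) and Akt2 did not pass (0.88 ± 0.27, 0.0627). Without the block the list had a median log2 fold change of 0.18 in total RNA with 21 of 29 above 0. The planned fit called 0 of the 29, with 6 in total RNA and 4 on polysomes at an unadjusted p under 0.05.

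Of 24 tested adaptors and feedback inhibitors, 2 rose and 2 fell with the block in each genotype comparison, and the planned fit called 1, Grb14, in total RNA. Over all tested genes the block fit called 13.1% in total RNA and 13% on polysomes, and the planned fit 1.02% in total RNA. Grb14, an adaptor that binds and inhibits the insulin receptor, measured 13.5 and 18.4 CPM in WT total RNA and 1.26 and 2.33 CPM in AUF1 total RNA. In the planned fit it fell by 3.15 ± 0.45 on the log2 scale (edgeR adjusted p = 0.0439), and with the block its log2 fold change was -3.18 ± 0.29 (0.000359). Grb10, its relative, which restrains both receptors, went the other way, from 0.608 and 0.773 CPM in WT to 2.28 and 5.48 CPM with AUF1 in total RNA. Its log2 fold change with the block was 2.41 ± 0.49 in total RNA and 2.99 ± 0.48 on polysomes (edgeR adjusted p = 0.012 and 0.00426; 0.151 and 0.101 without). Socs3, a feedback inhibitor that targets IRS proteins, fell with the block (-1.22 ± 0.25 and -1.49 ± 0.25, 0.0121 and 0.00495), and Trib3, an AKT inhibitor induced by stress, rose with it (1.60 ± 0.30 in total RNA, 0.00895). On polysomes the planned fit called 0 of the 24, with 4 at an unadjusted p under 0.05.

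Of 18 FOXO factors and targets, 3 rose and 3 fell with the block in total RNA and 3 rose and 2 fell on polysomes. The background over all tested genes was 13.1% called in total RNA and 13% on polysomes. Trim63, the muscle ubiquitin ligase MuRF1, measured 12.2 and 10.8 CPM in WT total RNA and 44.1 and 37.2 CPM in AUF1 total RNA. In the planned fit it rose by 1.82 ± 0.26 on the log2 scale and was the only gene of the list called (edgeR adjusted p = 0.0439), and with the block it rose by 1.82 ± 0.23 (0.00127). Fbxo32, the ubiquitin ligase atrogin-1, rose with the block by 1.17 ± 0.30 (0.0352), as did Foxo6 by 1.63 ± 0.31 (0.00848). Pdk4, a kinase that curbs glucose oxidation, fell with it (-1.16 ± 0.26, 0.0204), as did the factor Klf15 at 2.16 CPM or less in all libraries (0.0226) and Sesn1, a stress-induced mTORC1 inhibitor (-0.93 ± 0.25, 0.0415). The list was thus mixed, with a median log2 fold change without the block of -0.28 and 7 of 18 above 0 in total RNA. On polysomes the planned fit called 0 of the 18, with 5 at an unadjusted p under 0.05. With any 1 of the 8 libraries left out, the planned fit called 0 genes in total RNA, so the calls of Grb14 and Trim63 were lost too. The sums of skeletal and smooth muscle markers were higher in the AUF1 libraries, as given above, and their part in the values of these lists was not tested.

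**Figure D5:**
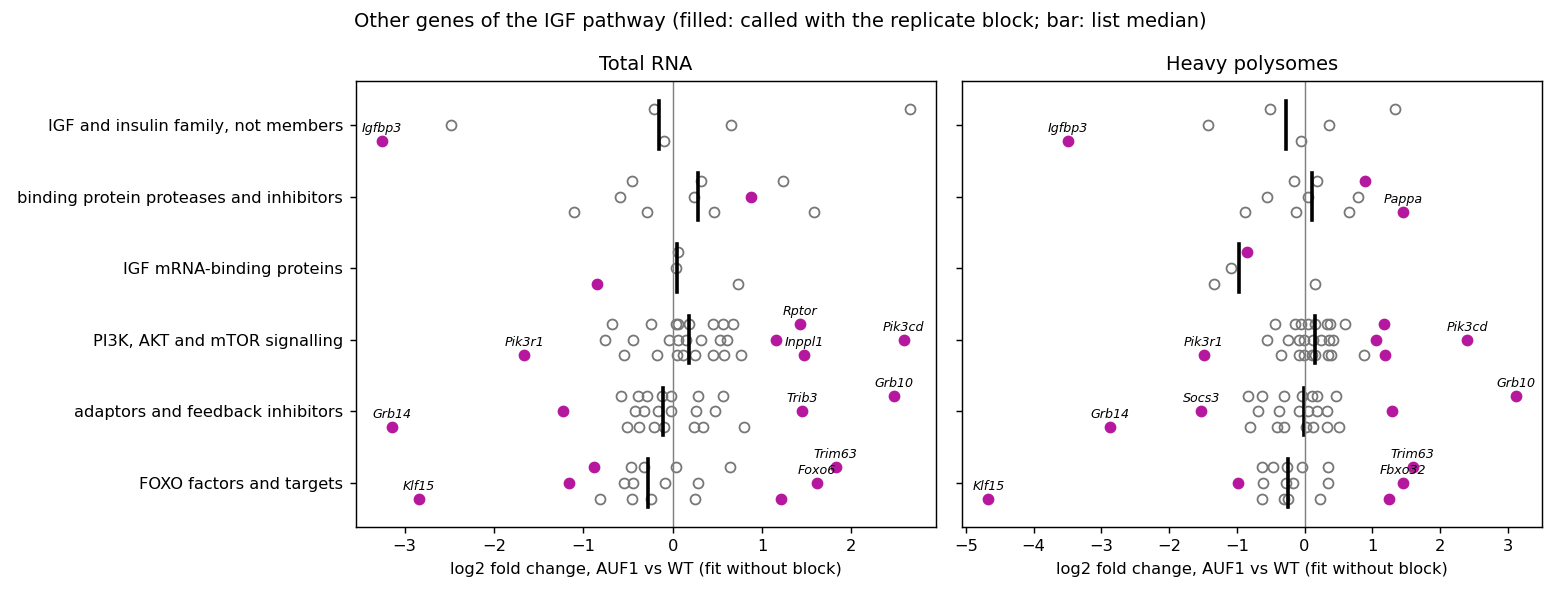
Log2 fold change of AUF1 against WT for the tested genes of 6 lists around the IGF pathway, in total RNA and on heavy polysomes; each circle is a gene at its value from the fit without the block, filled where edgeR with the replicate block called it, and the bar is the list median. Each list but those of family, proteases and mRNA-binding genes held calls in both directions in both kinds of RNA.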

How the data were processed

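RNA-seq of C2C12 cells gave 8 libraries, 2 in each of 4 groups taken from the sample titles; those with High in the title and cytoplasmic RNA as molecule were taken for the heavy polysome fraction. Titles number the replicates 1 and 2, while descriptions call the second one 3. Per the labels' protocols, RNA was purified with a Qiagen RNeasy kit and 500 ng entered a NEBNext Ultra kit. The authors deposited raw counts per gene symbol. STAR, Bowtie, SAMtools, Trimmomatic, cutadapt and the build mm10 appear in the submitters' processing notes; their versions, the read counter, its use of strand and its gene models were not given in the sources used here. The 5 summary lines, among them reads outside genes (6.04% to 7.23%) and reads of several genes (0.254% to 0.389%), were left out.

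All 13167 genes kept by filterByExpr were fitted in edgeR 4.0.16 (R 4.3.3) with TMM scaling, 1 coefficient per group and no block (4 residual degrees of freedom). The quasi-likelihood test was two-sided, with Benjamini-Hochberg adjustment over all tested genes and calls at an adjusted p under 0.05. Standard errors (SE) were obtained by dividing the log2 fold change by the square root of F. The replicate number as a block left 3 residual degrees of freedom. Within-number differences are of log2 CPM with a prior count of 2 and have no test. Other alternatives were RLE scaling, DESeq2 1.42.0, 2 other filters and leaving out each library. The scripts were tested on simulated data. Positions, exon lengths and UTR sequences come from GENCODE M21 (mm10), matched by symbol for 94% of tested genes.

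The members and lists were chosen with earlier results of these data known. All 10 members are named, with Hnrnpd, the called genes of each pathway list, some of its other genes, and the 3 genes closest to Igf1, Igf2 and Igfbp5. Tsc2, Map2k2, Dok4 and Ccng2 had an unadjusted p under 0.05 in a genotype comparison of the planned fit but are not described. Hras and Rack1 of the adaptor list were not found under these symbols and were not analysed here. Counting error is small at these depths, except for genes of few counts, and 2 libraries per group limit the precision.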

Additional observations from a re-analysis of the deposited data

How the results depend on the processing

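The labels do not say what a replicate number shares, so the planned fit leaves the pairing out. Log2 differences between replicates 1 and 2 correlated between groups with Pearson's r of 0.62 to 0.81 across 13167 genes, which are not independent replicates. With the replicate block the genes called went from 134 to 1730 in total RNA, from 46 to 1716 on polysomes and from 0 to 2 for polysomes against total RNA in each genotype, and stayed at 0 for the interaction. DESeq2 called 885, 856, 30 (WT) and 29 (AUF1), and with the block, added after seeing the data, 2364, 2417, 160 and 187. RLE scaling left 0 called in total RNA and 0 on polysomes (1701 and 1779 at an unadjusted p under 0.05), the stricter filter (at least 1 CPM in 2 libraries) left 0 on polysomes (1725 at an unadjusted p under 0.05), and no filter gave 94 on polysomes and 1 for polysomes against total RNA with AUF1. At an unadjusted p under 0.05 the planned fit had 16 genes for the interaction, 364 for polysomes against total RNA in WT and 438 with AUF1.

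Leaving out 1 library, the counts ran from 0 to 2975 in total RNA, 0 to 3011 on polysomes, 0 to 11 for the interaction, 0 to 70 for polysomes against total RNA in WT and 0 to 1133 with AUF1. Without the block all 8 such fits called 0 genes in total RNA and 0 on polysomes.

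Igf1, Igf2r and Irs1 kept the direction of their genotype difference under every alternative run. Igf2 in total RNA turned to -0.076 with RLE scaling, -0.077 in DESeq2 and -0.092 with the stricter filter, and on polysomes to 0.12 with the block and 0.11 in DESeq2 with the block. Igfbp5 turned to -0.19 and -0.25 in total RNA and to -0.16 and -0.17 on polysomes in these 2 fits with the block. The cause was not tested. Over the fits that leave out 1 library, both with and without the block, log2 fold changes in total RNA and on polysomes ran from -1.26 to 0.18 and -1.16 to 0.037 for Igf1r, -1.10 to 1.18 and -1.81 to 2.24 for Igf2, -2.99 to 3.87 and -2.32 to 3.23 for Igfbp2, -0.74 to 0.48 and -1.04 to 0.50 for Igfbp4, -2.12 to 1.30 and -1.75 to 1.24 for Igfbp5, -3.54 to 2.87 and -3.75 to 3.35 for Igfbp7, and -0.48 to 0.36 and -0.42 to 0.20 for Irs2. With the block alone Igf1r stayed below 0, from -0.81 to -0.21 and from -0.74 to -0.27. Over the same fits the interaction ran from -1.18 to 1.31 for Igf1, -0.83 to 0.15 for Igf2r and -0.27 to 0.66 for Irs1. Polysomes against total RNA ran from -0.85 to 1.39 for Igf1 and -2.60 to 1.93 for Igfbp2 in WT, and from -0.77 to 1.53 and -4.40 to 3.61 with AUF1. A lone library is assumed in these fits to vary like the other groups.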
